A study of Mus musculus with 4 samples.

Results

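The small heat shock genes Hspb1, Hspb2, Hspb3, Hspb6, Hspb7, Hspb8 and Cryab were followed in spinal motor neurons of SOD1 transgenic mice. They were chosen by gene symbol, without use of their values but with earlier results of these data known. All 7 had 1 row each among the 27189 genes of every file. Motor neuron RNA came from 4 mice of a C57BL/6J x SJL/J background at 3 months of age, 2 from the strain SOD1 YFP (wildtype 592) and 2 from the strain SOD1 G85R YFP (737), with 1 library for each mouse. Both strains carried a human SOD1 genomic fragment fused to eYFP, so that no library came from a mouse without a transgene. The G85R strain had many more transgene copies than the wild-type strain, and strain, copy number and mutation cannot be told apart. Each strain is a single transgenic line, with the G85R transgene homozygous on chromosome 4, and the G85R mice were not yet paralysed at this age. Large ventral horn cell bodies stained with Azure B, 3000 to 4000 for each animal, were collected by laser microdissection, and cells with large fluorescent aggregates were left out, so that the G85R libraries represent the motor neurons without them.

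Small heat shock proteins are ATP-independent chaperones built around an α-crystallin domain. They form oligomers that hold unfolding proteins in a soluble state until ATP-dependent chaperones of the Hsp70 family refold them or pass them on for degradation. In the nervous system they are known from motor neurons and glia, and inherited mutations in HSPB1, HSPB3 and HSPB8 cause motor neuropathies. In mouse models of mutant SOD1 they have been studied as chaperones that can bind misfolded SOD1.

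Several of these genes are targets of heat shock factor, whose binding element is built from inverted GAA units. The letters GAANNTTC, which read the same on both strands, were searched from 250 bases before to 50 bases after the RefSeq start of each gene. Windows were found for 5 of the 7 genes, namely Hspb1, Hspb3, Hspb6, Hspb7 and Hspb8, and not for Hspb2 and Cryab. The matches are shown for the genes with a window only. Without Cryab and Hspb2, expressed and silent members cannot be compared as groups by them. Each is printed on the strand of the gene with 10 bases on either side, and capitals mark the element.
Hspb1, distal: ttcaacaagaGAAGTTTCcagatggggg
Hspb1, proximal: gatgggggcaGAACCTTCctggccccgc
Hspb6: agtaattattGAAGTTTCtaaataagga
Hspb8: gaagccaggaGAAGTTTCtaggctcgcg
Hspb3: tccccgaatgGAATTTTCaggcagaggg
By exact match to NCBIM37, the assembly that UCSC names mm9, the Hspb1 sequences lie at chr5:136363662-136363689 and chr5:136363682-136363709 on the plus strand, with the element beginning at base -117 and base -97 from the start. That of Hspb6 lies at chr7:31338190-31338217 on the plus strand, at base -120 of the second of its 2 annotated starts. That of Hspb8 lies at chr5:116872854-116872881 on the minus strand, at base 3 after the start, and that of Hspb3 at chr13:114454091-114454118 on the minus strand, at base -224. Thus 4 of the 5 genes held GAANNTTC, among them 1 that was nearly silent in motor neurons. Counted by window, these were 4 of 6, compared with 7.86% of all 32851 windows. Among 20 genes of the wider heat shock lists described later, 10 held it, in 11 of 25 windows. The inverse order TTCNNGAA, also the same on both strands and found in 8.52% of all windows, was present in 0 of the 5 genes and in 4 of the 20. Longer elements, in which a further inverted unit follows either pair at the same spacing, were in 0.603% of all windows, in 4 of the 20 heat shock genes and in 0 of the 5, and by their construction overlap the shorter ones. These are matches of letters, and binding was not measured.

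The depth was similar across libraries. Expression was given as RPKM, a read density scaled to transcript length and to the mapped reads of the library, and the reads behind all genes were estimated at 21560318 to 25186594. The 8 motor neuron marker genes were all above 0 in each library, with summed RPKM of 2205 to 2731. All 10 astrocyte, all 10 oligodendrocyte and all 10 microglial markers were also above 0 in each library. Being above 0 therefore does not show a motor neuron origin. The summed RPKM of 10 oligodendrocyte markers was 877 to 1148, so that oligodendrocyte RNA was present as well. The mouse Sod1 row was at 96.3 and 146 RPKM for wild-type, 124 and 150 for G85R, and its row cannot separate mouse reads from those of the human transgene that map to it.

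The 7 genes fell into 3 levels of expression. Cryab and Hspb8 were abundant, with RPKM from 123 to 191, and ranked above 97.8% to 98.7% of all genes. Hspb1 and Hspb6 were intermediate, from 10.1 to 31.2, and ranked above 78.7% to 90.7%. Hspb2, Hspb3 and Hspb7 were at or near the limit of detection. Cryab and Hspb8 together made up 87.3% to 91.3% of the summed RPKM of the family.

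**Figure D1:**
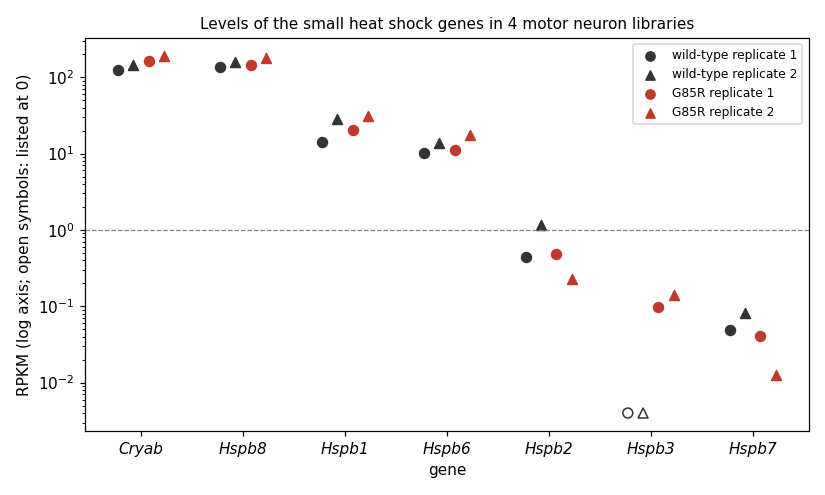
RPKM on a log axis of the 7 small heat shock genes, ordered by mean, in wild-type (black) and G85R (red) libraries, with circles for replicate 1, triangles for replicate 2, open symbols for values listed at 0, and a dashed line at an RPKM of 1, the minimum mean for testing. Cryab and Hspb8 lie between 123 and 191, Hspb1 and Hspb6 between 10.1 and 31.2, and the other genes mostly below 1.

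Hspb8 (Entrez identifier 80888, chr5:116858500-116872873, minus strand, NCBIM37 here and for the other genes) encodes Hsp22, which works in a complex with the co-chaperone Bag3 and Hsp70 that directs misfolded proteins to autophagy. The wild-type libraries gave 136 and 157 RPKM, the G85R libraries 146 and 177, on 7046 to 9106 estimated reads. The genotypes overlapped. By limma G85R exceeded wild-type by 0.14 ± 0.13 (SE) in log2 units, with an adjusted p = 0.795, which corresponds to 1.1-fold with a 95% interval from 0.887-fold to 1.36-fold. Without G85R replicate 2 the log2 difference was -0.0047, so that its direction rested on that library.

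Cryab (12955, chr9:50560863-50564738, plus strand) encodes αB-crystallin, a chaperone of the eye lens and of muscle that oligodendrocytes and astrocytes also express. It was at 123 and 144 RPKM for wild-type against 164 and 191 for G85R, on 3671 to 5531 estimated reads. Both G85R libraries lay above both wild-type libraries, which also held for 17.3% of all tested genes. The difference was 0.41 ± 0.12 (SE) in log2 units, or 1.33-fold with a 95% interval from 1.09-fold to 1.63-fold. Its unadjusted p from limma was 0.0127 and its adjusted p was 0.288, so that Cryab was not called. In such bulk RNA, more cells of a type and more RNA for each cell cannot be told apart.

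The order of the 2 abundant genes differed by genotype. Hspb8 exceeded Cryab in both wild-type libraries, where the ratio of Cryab to Hspb8 was 0.907 and 0.914. Cryab exceeded Hspb8 in both G85R libraries, where the ratio was 1.12 and 1.08. The mean ratio (± SD, n = 2) was 0.91 ± 0.00487 for wild-type and 1.1 ± 0.0322 for G85R, with p = 0.333 in a two-sided exact permutation test. That is the smallest p that 2 libraries against 2 allow. The ratio was examined after the values of both genes had been seen. Between the replicates of a genotype Hspb8 differed by 1.16-fold in wild-type and 1.22-fold in G85R, and Cryab by 1.17-fold in both.

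**Figure D2:**
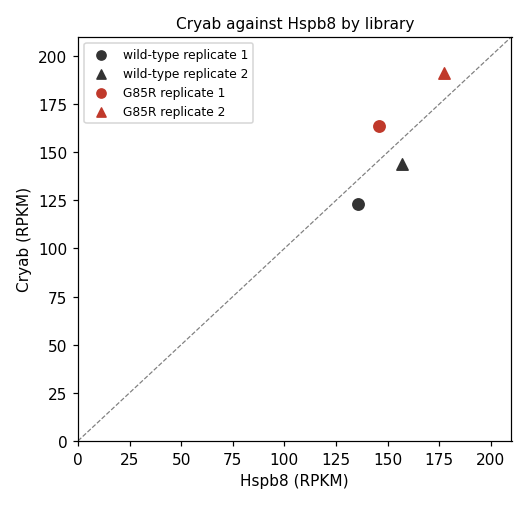
RPKM of Cryab against RPKM of Hspb8 in the 4 libraries, with a dashed line where both are equal. The wild-type libraries (black) lie below the line, with ratios of 0.907 and 0.914, and the G85R libraries (red) lie above it, with ratios of 1.12 and 1.08.

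Hspb1 (15507, chr5:136363789-136365433, plus strand) encodes Hsp25, the mouse counterpart of human HSP27, which protects neurons after axonal injury and binds actin. It had 14.2 and 28.6 RPKM in the wild-type libraries against 20.6 and 31.2 for G85R, on 306 to 658 estimated reads. The genotypes overlapped, and the wild-type libraries differed by 2.01-fold between themselves. By limma the log2 difference was 0.33 ± 0.33 (SE), adjusted p = 0.809, with a 95% interval from 0.73-fold to 2.17-fold. It was -0.17 without wild-type replicate 1, so that its direction rested on that library.

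Hspb6 (243912, chr7:31337197-31340462, plus strand) encodes Hsp20, known from smooth and cardiac muscle. The wild-type level was 10.1 and 13.8 RPKM, that of G85R 11.1 and 17.4, on 382 to 641 estimated reads. The genotypes overlapped, and limma gave a log2 difference of 0.24 ± 0.24 (SE), adjusted p = 0.807, with a 95% interval from 0.8-fold to 1.74-fold. It was -0.08 without G85R replicate 2, on which its direction rested. Hspb1 lay above Hspb6 in each of the 4 libraries, but the ranges of both genes over the libraries overlapped.

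**Figure D3:**
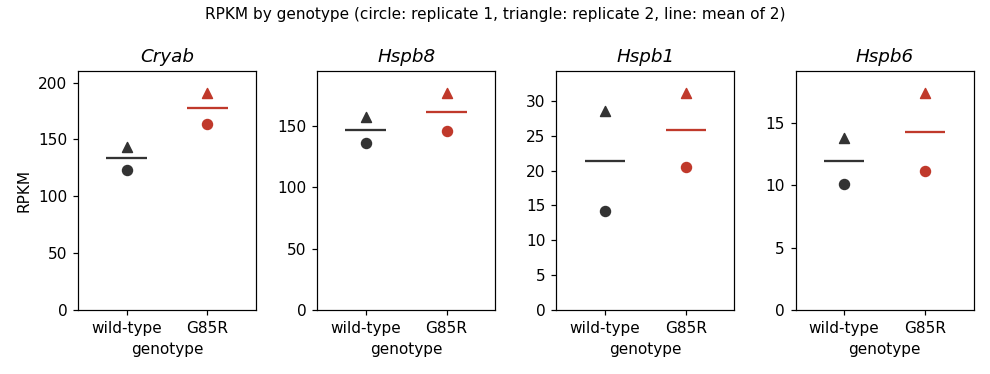
RPKM of the 4 tested small heat shock genes by genotype, on axes that begin at 0, with circles for replicate 1, triangles for replicate 2 and lines for the mean of 2 libraries. The genotypes overlap for Hspb8, Hspb1 and Hspb6, while both G85R values of Cryab, 164 and 191, lie above the wild-type values, 123 and 144.

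Hspb2 (69253), a muscle chaperone that binds myotonic dystrophy protein kinase, lies head to head with Cryab on the minus strand (chr9:50559177-50560459). Only 403 bases separate both genes. In wild-type replicates 1 and 2 and G85R replicates 1 and 2 it had 0.443, 1.17, 0.484 and 0.228 RPKM, on 8, 22, 8 and 4 estimated reads. The genotypes overlapped, and the gene next to one of the most abundant of the family was among the low ones in all 4 libraries. Since no strand-specific step is named for the libraries, reads could not be assigned to a strand.

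Hspb3 (56534, chr13:114453104-114453884, minus strand) encodes a partner of Hspb2 in muscle. Both wild-type libraries list it at 0, while G85R replicates 1 and 2 were at 0.098 and 0.138 RPKM, which correspond to 2 and 3 reads. Hspb7 (29818, chr4:140976694-140981226, plus strand), the cardiovascular small heat shock protein, was at 0.0494, 0.0814, 0.0406 and 0.0127 RPKM in wild-type replicates 1 and 2 and G85R replicates 1 and 2, on 4, 7, 3 and 1 reads. Both G85R values were the higher ones for Hspb3 and the lower ones for Hspb7. At 0 to 7 reads for each library, neither gene entered the filtered test. The ranges of Hspb3 and Hspb7 overlapped, while Hspb2 lay above both in every library. Of the relatives outside the list, the lens chaperone Cryaa had at most 1 read in a library and Odf1, a protein of the sperm tail, at most 4. Hspb9 and Hspb11 were not analysed here.

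Both genotypes were compared by limma for 11530 genes whose RPKM averaged at least 1, on the scale log2(RPKM + 0.1), which understates changes of low genes. Only 4 of the 7 small heat shock genes passed this filter. After adjustment 0 of these 4 passed 0.05, while 0.642% of all tested genes were called. At an unadjusted p under 0.05 it was 1 of 4, Cryab, compared with 11.0% of all tested genes in either direction and 4.66% higher in G85R. The log-linear test used in the study, a likelihood ratio test which takes RPKM as Poisson counts, was run without a filter. It called 0 of 7 after adjustment, against 0.228% of all genes. Because RPKM were rounded to whole numbers, Hspb2, Hspb3 and Hspb7, each averaging under 1 RPKM, could not be called by it. Unadjusted, the log-linear test passed 1 of 7, again Cryab, against 1.29% of all genes. Without the filter limma called 0 of 7, against 0.412% of all genes, and 1 of 7 had an unadjusted p under 0.05, against 7.21%. That gene was Hspb3, on its 0, 0, 2 and 3 reads, and its adjusted p was 0.36 (limma). With the replicate number as a block, limma called 1 of 4, Cryab, while 4.57% of tested genes were called and 2.09% were called higher. What the replicates of a number share is not stated. The 4 tested members had higher means in G85R, as did 5218 of the 11530 tested genes, and the direction was the same when libraries were rescaled by their median ratio or quantile normalized. The summed RPKM of the 7 genes was 284 and 344 for wild-type against 342 and 417 for G85R, or 314 ± 43.0 and 380 ± 53.5 (SD, n = 2 each), and the genotypes overlapped.

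The partners and regulators of the small heat shock proteins included genes with higher and with lower means in G85R. Bag3, the co-chaperone that binds Hspb8 and links it to autophagy, was at 108 and 121 RPKM for wild-type against 92.0 and 110 for G85R. These overlapped, and limma gave a log2 difference of -0.18 ± 0.12 (SE), adjusted p = 0.681. Hsf1, the main heat shock transcription factor, was at 17.0 and 23.2 RPKM for wild-type against 14.6 and 16.7 for G85R. Both G85R values of Hsf1 were the lower ones, as for 23.9% of all tested genes, and limma put the log2 difference at -0.35 ± 0.17 (SE), adjusted p = 0.525. Hspa8, the constitutive Hsp70 partner, was listed at 0.837, 0.709, 1.73 and 82.9 RPKM in wild-type replicates 1 and 2 and G85R replicates 1 and 2. Only 1 library was high, and processed pseudogenes can share its reads, so that this row is no measure of Hspa8. Of the 5 genes listed for chaperone-assisted autophagy 4 were found, and of these and the 3 heat shock factors 0 were called by limma. Hspa8 alone passed at an unadjusted p under 0.05, and Hspa8 alone was called by the log-linear test.

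Other genes of the heat shock response were followed in a list of 18 chaperones and co-chaperones. Among them Hspd1, Hspe1 and Hsp90aa1 were low, at 2.57 to 6.08 RPKM, and whether pseudogenes share their reads was not tested. All 18 were tested and all 18 averaged higher in the mutant, also under median ratio rescaling and quantile normalization, and their median log2 difference was 0.24 compared with -0.02 over all tested genes. Both G85R values lay above both wild-type values in 13 of the 18, with 17.3% among all tested genes. With limma 3 of the 18 had an adjusted p under 0.05, compared with 0.269% of tested genes called higher. The list held Hsph1, which the study had singled out in these samples. It also held Dnajb1, near which the study placed an unannotated transcribed region raised in G85R. The list is therefore not independent evidence of a direction. The study also found Hsph1 raised by qRT-PCR and reported no change of Hspa4 and Hspa4l, both in the list. From its data a global heat shock response appeared to it to be absent.

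The called genes were Hspa1b, Dnaja1 and Dnajb1. Hspa1b, a stress-inducible Hsp70, rose from 0.986 and 1.29 RPKM to 4.40 and 4.44, by 1.88 ± 0.19 (SE) in log2 units, with an adjusted p = 0.0128 by limma. Hspa1b and its neighbor Hspa1a are near-identical copies between which reads can be divided, and Hspa1a, named after its values were seen, was at 1.94 and 2.12 RPKM for wild-type against 4.20 and 3.97 for G85R, with an adjusted p = 0.0609 by limma. Dnajb1, an inducible Hsp40 that hands substrates to Hsp70, rose from 42.8 and 48.0 to 81.0 and 72.3 RPKM, by 0.75 ± 0.11 (SE) in log2 units, with an adjusted p = 0.0489 by limma. Dnaja1, another Hsp40, rose from 23.1 and 18.4 to 39.0 and 38.4 RPKM, by 0.91 ± 0.13 (SE) in log2 units, with an adjusted p = 0.0480 by limma. Hsph1, the Hsp110 that exchanges the nucleotide of Hsp70, was at 175 and 151 RPKM for wild-type against 245 and 240 for G85R, a log2 difference of 0.57 ± 0.11 (SE) with an adjusted p = 0.0899 by limma. Both G85R values were the higher ones for each of these 5 genes. The log-linear test called 2 of the 18, Dnajb1 and Hsph1, and not Hspa1b or Dnaja1. Of all 27189 genes it called 0.228%, without the filter that the 18 had passed, so that the shares are not alike. Because it takes RPKM rounded to whole numbers as counts, it had little power for Hspa1b, at 0.986 to 4.44 RPKM. The calls of Dnajb1 and Dnaja1 by limma lay close to the threshold. Without wild-type replicate 1 the adjusted p of Dnajb1 was 0.0805, without wild-type replicate 2 that of Dnaja1 was 0.065, and without G85R replicate 1 they were 0.114 and 0.0579 (limma). Without a filter on low values the adjusted p of Hspa1b, Dnajb1 and Dnaja1 was 0.305, 0.429 and 0.474 (limma). With a minimum mean RPKM of 5, which Hspa1b did not reach, it was 0.0658 for Dnajb1 and 0.0638 for Dnaja1, and after quantile normalization 0.0788 and 0.0737 (limma). With the replicate number as a block limma called 6 of the 18, these 3 genes and Hspa1a, Hsph1 and Cacybp. The adjusted p by limma was then 0.00928 for Hspa1a and 0.00257 for Hsph1. That fit called 4.57% of all tested genes, and 2.09% as higher in G85R.

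**Figure D4:**
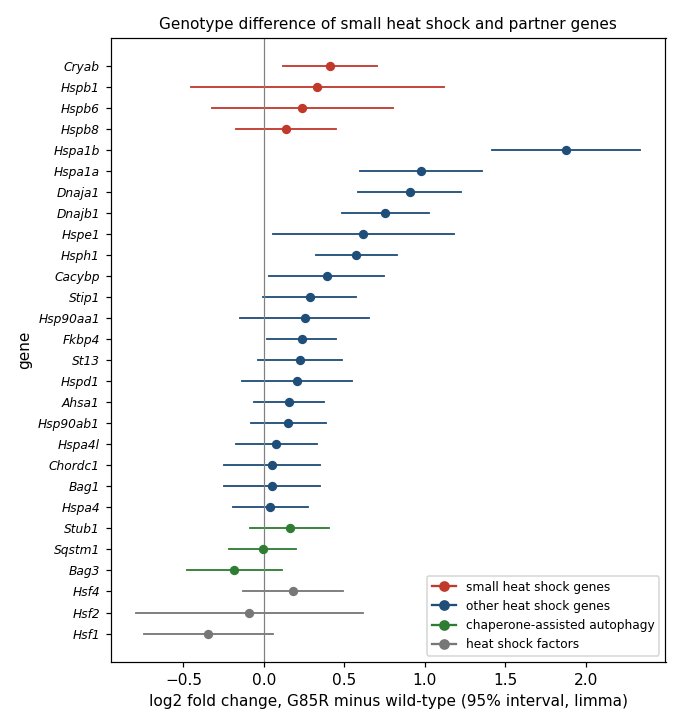
Log2 fold change, G85R minus wild-type, with the 95% interval from limma for the small heat shock genes (red), other heat shock genes (blue), genes of chaperone-assisted autophagy (green, without Hspa8) and heat shock factors (gray). The interval of Cryab is above 0, those of Hspb1, Hspb6 and Hspb8 include 0, and the estimates of all 18 blue genes lie above 0, up to 1.88 for Hspa1b.

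Because glia also express Cryab and Hspb1, markers of other cells were set beside the small heat shock genes. The summed RPKM of 10 astrocyte markers, mostly from Aldoc and S100b, was 912 and 904 for wild-type against 1302 and 999.8 for G85R replicates 1 and 2. Aqp4, Aldh1l1, Slc1a2, Slc1a3 and Sox9 were at 6.81 RPKM or lower in every library, so that the sum mainly measures Aldoc and S100b. Whether the RNA of Aldoc and S100b came from astrocytes was not tested. Gfap, the intermediate filament of astrocytes, named after its values were seen, was at 11.5 and 17.1 RPKM for wild-type against 91.9 and 28.4 for G85R, with an adjusted p = 0.212 by limma. Of the 10 astrocyte markers 4, Gfap, S100b, Aldoc and Slc1a2, had both G85R values above both wild-type values, against 17.3% of all tested genes. In 1, Sox9, both lay below, against 23.9% of all tested genes, and the others overlapped. Without G85R replicate 1, the library with the highest sum, the log2 fold change of Cryab was 0.52. The G85R library that remained still lay above both wild-type libraries in the astrocyte sum and in Gfap. Leaving out a library therefore cannot decide what astrocyte RNA contributes. The part of astrocyte RNA in the difference of Cryab was not tested.

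The summed oligodendrocyte markers were 965 and 900 RPKM for wild-type against 1148 and 877 for G85R. These overlapped between the genotypes, and Mbp, a protein of the myelin sheath, was at 302 and 322 RPKM for wild-type against 412 and 334 for G85R. The 10 microglial markers summed to 16.7 and 18.6 RPKM for wild-type against 42.3 and 20.1 for G85R, with C1qa at 3.29 and 3.24 against 11.0 and 4.14, and C1qb at 4.35 and 4.43 against 8.82 and 4.75. The 8 endothelial markers summed to 12.0 and 12.6 RPKM for wild-type against 10.7 and 10.2 for G85R, led by Cldn5 and Esam. Both G85R values were the higher ones in 5 of the 10 microglial, 1 of the 10 oligodendrocyte and 0 of the 8 endothelial markers. They were the lower ones in 0, 0 and 2 of these. Among all tested genes the shares were 17.3% higher and 23.9% lower. The 6 mural markers, led by Rgs5 and Cspg4, summed to 4.02 to 5.26 over the libraries. The 8 markers of striated muscle, the tissue in which Hspb2, Hspb3 and Hspb7 are best known, summed to 0.0695 to 0.217, led by Acta1 and Ckm, and Myh1, Actc1 and Myl1 were listed at 0 in all libraries. With limma 0 of the 39 tested markers of all lists were called, against 0.642% of all tested genes. An unadjusted p under 0.05 was reached by 7 of the 39, against 11.0% of all tested genes, of which Gfap, S100b, C1qa, C1qc and Tyrobp were higher in G85R and Prph and Cldn5 lower. The log-linear test called 3 of the 39, with Gfap and Aldoc higher and Prph lower. Of all 27189 genes it called 0.228%, without the filter that the 39 had passed, so that the shares are not alike. With the replicate number as a block, in which Cryab was called, limma also called 4 of the 39, against 4.57% of all tested genes. These were Gfap and C1qa, which were higher in G85R, and the motor neuron markers Chat and Isl2, which were lower.

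The motor neuron markers summed to 2472 and 2731 RPKM for wild-type against 2205 and 2575 for G85R, with Nefh and Prph the highest. Within each genotype, the library with the higher sum also had the higher Cryab, Hspb8, Hspb1 and Hspb6. Over all libraries, G85R replicate 1 had the lowest motor neuron sum and the second highest Cryab. The part of these markers in the levels of the small heat shock genes was not tested.

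**Figure D5:**
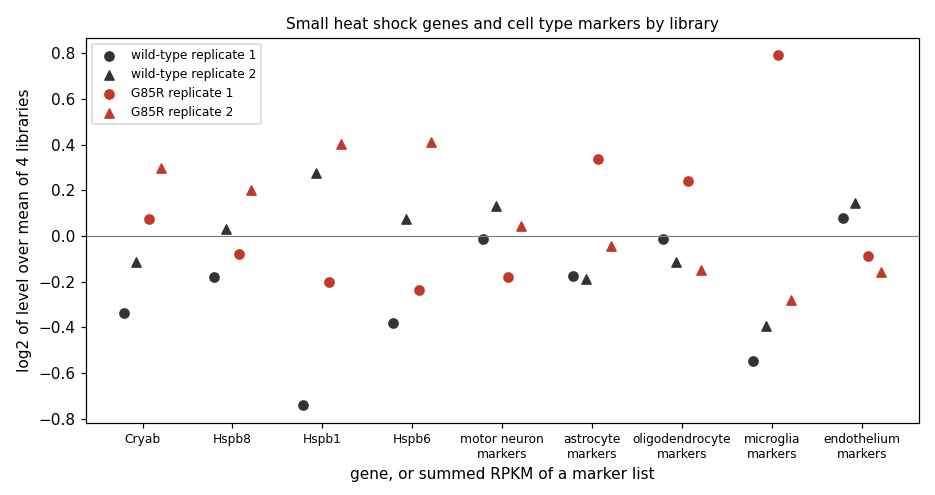
Log2 of the level in a library over the mean of the 4 libraries, for the 4 expressed small heat shock genes and for the summed RPKM of the marker lists of 5 cell types, with wild-type in black, G85R in red, circles for replicate 1 and triangles for replicate 2. G85R replicate 1 has the highest astrocyte, oligodendrocyte and microglial sums, while G85R replicate 2 has the highest level of each small heat shock gene. The astrocyte sum is mostly Aldoc and S100b.

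Among all tested genes, the profiles over the 4 libraries most like that of Cryab, the member with the highest mean, were those of Sh3bgrl3, Dnase1l1 and Slc41a3. Likeness was measured as the Euclidean distance between centered values of log2(RPKM + 0.1), which was 0.0342, 0.0490 and 0.0508. Sh3bgrl3 was at 202 and 229 RPKM for wild-type against 267 and 310 for G85R. With 4 libraries many genes share a profile, and 22 of the 11530 tested genes lay within a distance of 0.1.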

How the data were processed

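The authors mapped 75-base single-end reads to mm9 and to splice junctions with Bowtie (0.12.3), and Cufflinks gave the expression of UCSC gene clusters. The deposited values are RPKM, in one column unaltered and in another after addition of 1 read, so that the RPKM of 1 read is their difference. Estimated reads are the RPKM over that difference. They are no exact counts, as Cufflinks shares reads among isoforms, and no intervals for counting error were made. Genotypes were compared in 2 against 2 libraries by lmFit and eBayes (trend) of limma 3.58.1, run in R 4.3.3, two-sided, on log2(RPKM + 0.1) where the mean RPKM was at least 1, with Benjamini-Hochberg adjustment over all 11530 tested genes and calls at an adjusted p under 0.05. The log-linear test was a Poisson likelihood ratio test of the RPKM with 1 read added, rounded. Both tests were run on data simulated under their own assumptions, which does not check those assumptions. Each symbol had 1 row, so that no choice between entries arose.

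The members and lists were chosen with earlier results of these data known. Named were every member and its relatives, genes of the heat shock lists with an adjusted p under 0.05, Bag3, Hspa8, Hsf1 and Hsph1, the 2 highest markers of each list (1 of them is not reported here) and markers at 0, and the 3 profiles nearest to the highest member. Genes were located with an annotation of NCBIM37. Promoter windows came from RefSeq (GRCm38.p6) and were placed on NCBIM37 by sequence. Python 3.11.15, numpy 2.4.6, pandas 2.3.3, scipy 1.17.1 and matplotlib 3.10.9 were used. Alternatives were pseudocounts of 1 and 0.01, a minimum mean RPKM of 5 or none, rescaling by the median ratio, quantile normalization, robust eBayes, a replicate block, the log-linear test, and leaving out each library.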

Additional observations from a re-analysis of the deposited data

How the results depend on the processing

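Over 13 alternatives Cryab remained higher in G85R, with log2 fold changes of 0.30 to 0.52 and adjusted p of 0.0128 to 0.748 (limma or the log-linear test), and it was called in 1 of them. That was the fit with the replicate number as a block, in which Cryab had a log2 fold change of 0.41 and an adjusted p of 0.0128 (limma), the number of small heat shock genes called was 1 of 4, of partner and heat shock genes 7, with the row of Hspa8 among them, and of all tested genes 527. What replicates of a number share is not stated. The deviations of same-numbered libraries from the genotype means correlated with 0.22 over 11530 genes. Of the tested genes 28.0%, with all 4 tested small heat shock genes among them, were higher in replicate 2 of both genotypes. Neither value was set against one for unrelated replicate numbers, so that neither shows what replicates share. Hspb1, Hspb6 and Hspb8 were called in 0 of the alternatives, and each kept its direction in 12 of 13. Leaving out 1 library gave log2 fold changes of -0.17 to 0.84 for Hspb1, -0.0812 to 0.56 for Hspb6, -0.0047 to 0.28 for Hspb8, and 0.30 to 0.52 for Cryab. The negative values came without wild-type replicate 1 for Hspb1 and without G85R replicate 2 for Hspb6 and Hspb8. With a library left out, the single library of a genotype was assumed to vary like the others. The 74 calls among all tested genes became 112 without a filter, 17 with a minimum mean RPKM of 5 and 40 after quantile normalization, and 78 to 188 with 1 library left out, the most without G85R replicate 2. The 3 calls among the 25 partner and heat shock genes became 0 without a filter, 0 of 21 with a minimum of 5, under which Hspa1b was not tested, and 1 after quantile normalization. The cause of these shifts was not tested. An RPKM of 1 read of 0.0116 to 0.0624 in Hspb2, Hspb3 and Hspb7 limited what could be seen of these genes.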
